A study of Sus scrofa with 6 samples.

Results

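Genes of lipid uptake, lipoprotein handling, lipid droplets and fatty acid oxidation were examined in differentiating porcine satellite cells (PSCs), which are resident stem cells of muscle and give rise to myotubes. The set was a list of 59 gene symbols, and a gene was included when its pig Ensembl identifier carried one of them. In all, 44 of the 59 symbols were matched to a row, out of 28266 rows in the table. The other 15 (APOL6, LPL, CD36, FABP3, FABP4, ACSL5, MLYCD, ECHS1, ECI1, ACOT1, ACOT2, PLIN2, PLIN3, DGAT2 and LPIN2) were not analysed here. RNA-seq libraries came from 2 groups with 3 libraries each, N1 (N1_4, N1_5 and N1_6) and N2 (N2_4, N2_5 and N2_6). N1 was harvested at 24 h of differentiation. N2 was harvested at 48 h according to the sample labels and at 36 h according to the culture description, and it is called the later harvest below. The letter N is taken as the negative control (NC) siRNA group, which the labels themselves do not spell out, so that both groups carry the same control transfection and differ in time. The cells were isolated from the limb muscles of 3-day-old male Yorkshire pigs, freed of fibroblasts by attachment to uncoated dishes, transfected with lipid-based reagent and differentiated in medium with horse serum. The number of animals is not given in the sources used here, so p-values measure the spread between these libraries, which may be technical.

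Fatty acids reach a muscle cell from lipoproteins, whose triglycerides are cleaved outside the cell by lipoprotein lipase, or from its own droplets, which lipases open from within. Acyl-CoA synthetases activate them, the carnitine shuttle (CPT1 on the outer and CPT2 on the inner mitochondrial membrane) carries them into mitochondria, and beta-oxidation shortens them stepwise. The electrons released pass through the electron transfer flavoprotein to the respiratory chain. PPAR alpha, delta and gamma are nuclear receptors that bind fatty acids and turn on many of these genes, with PPAR delta known as the prevailing form in skeletal muscle and PPAR gamma as the regulator of fat cells.

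The values were FPKM, the fragments of a gene per kilobase of its length, scaled to the counted fragments of the library. Libraries of N1 held 16339096 to 16863929 counted fragments and those of N2 held 17969877 to 21841266, so that 1 fragment of a 1 kb gene was worth an FPKM between 0.0457 and 0.0610. All 9 muscle markers with a row had a mean FPKM of at least 1. Their means ran from 3.19 (MYF6) to 1693 (DES) in N1 and from 7.61 (MYF6) to 5572 (ACTA1) in N2. Of the 9, 7 were higher in N2 (77.8%, against 16.5% of all genes). PAX7, MYMX, CKM and TTN had no row. A mean FPKM of 1 alone does not set muscle apart, since 6 of 7 smooth muscle and pericyte markers and 5 of 7 fibroblast markers with a row also reached it. By contrast, 7 of 8 epithelial markers did not reach a mean FPKM of 1 (KRT8 and PGR were at 0 in every library). The remaining one, CDH1 (E-cadherin), rose from 0.417, 0.430 and 0.107 to 4.36, 4.18 and 2.35 (log2 change 1.79, limma adjusted p = 0.00155). The labels' extraction text names endometrium, while their tissue and cell type fields name skeletal muscle and satellite cells. One library stood apart. MYH3, the embryonic myosin heavy chain, had an FPKM of 151 in N1_6 against 677 and 517 in N1_4 and N1_5 and 2052 to 2499 in N2. In 16 of the 24 lipid genes that passed the test (66.7%), N1_6 lay beyond the mean of N1_4 and N1_5 on the side away from N2. Among all genes that passed, the share was 72.2%. The folds of lipid genes that N1_6 moves most, and the calls of lipid genes lost without it, are given with and without it.

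The lipid genes spanned a wide range of levels. The highest mean FPKM over the 6 libraries was 140 for ACSL4, an acyl-CoA synthetase with a preference for arachidonic acid. ETFDH (127), ETFA (102), ACSL3 (85.0) and ETFB (74.5) followed, so that 3 of the 5 highest genes belong to electron transfer from beta-oxidation. At the other end, 6 genes with a row lay under a mean FPKM of 1 and were not tested. They were APOD, ACSL6, ACADVL, PLIN4, PLIN5 and PPARG. ACADVL, the dehydrogenase for very long acyl chains, was among them with an FPKM of 0.109, 0.225 and 0.224 in N1 and 0.0590, 0.112 and 0.409 in N2, from a sum of 15 and of 18 fragments over the libraries of N1 and N2. So few fragments give no comparison.

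**Figure D1:**
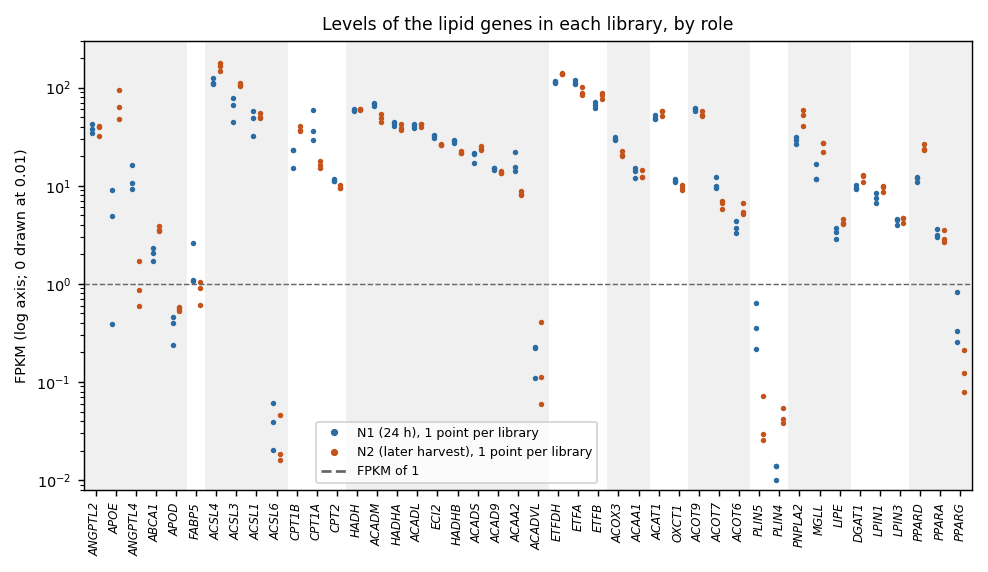
FPKM (log axis) of the 44 lipid genes with a row, grouped by role (shaded blocks) and ordered within a role by level, with 1 point per library for N1 (blue) and N2 (orange) and a dashed line at an FPKM of 1. Most genes lie between 2 and 200, the 6 untested genes lie under the dashed line, and APOE and ANGPTL4 show the widest separation of the groups among the tested genes.

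Between N1 and N2, lipid genes moved in both directions. The 14060 genes whose FPKM averaged 1 or more were compared with limma on log2(FPKM + 1) (two-sided, with a mean-variance trend), and p was adjusted over all of them by Benjamini-Hochberg. SE is the standard error of the estimated change. All log2 changes below are N2 minus N1 on this scale, which understates the change of genes with low FPKM, and folds are ratios of the mean FPKM. Of the 38 lipid genes tested, 13 were higher in N2 (34.2%, where 16.5% of all genes were), 11 were lower (28.9%, where 34.4% of all genes were), and 14 did not pass an adjusted p of 0.05. In either direction that is 63.2% of the lipid genes, against 50.9% of all genes. The groups did not overlap in 29 of the 38 (76.3%, against 63.6% of all genes). The median log2 change was 0.03 for the lipid genes and -0.16 for all genes. How far the whole transcriptome leaned to lower values depended on the scaling of the libraries. With median-ratio scaling, which sets the typical gene equal between libraries, the median of all genes was -0.01, and 51.8% of the calls over all genes were higher, against 32.4% on the deposited values. With that scaling 46.3% of all genes passed, 18 lipid genes were higher (47.4%, against 23.9% of all genes) and 7 were lower (18.4%, against 22.3%). With quantile normalization 46.8% of all genes passed, 15 lipid genes were higher (against 21.6% of all genes) and 9 lower (against 25.2%). Counting whole fragments with limma voom, 51.5% of all genes passed, 15 lipid genes were higher (against 16.7%) and 11 lower (against 34.9%). Without N1_6, 52.2% of all genes passed, 13 lipid genes were higher (against 17.4%) and 9 lower (against 34.8%).

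**Figure D2:**
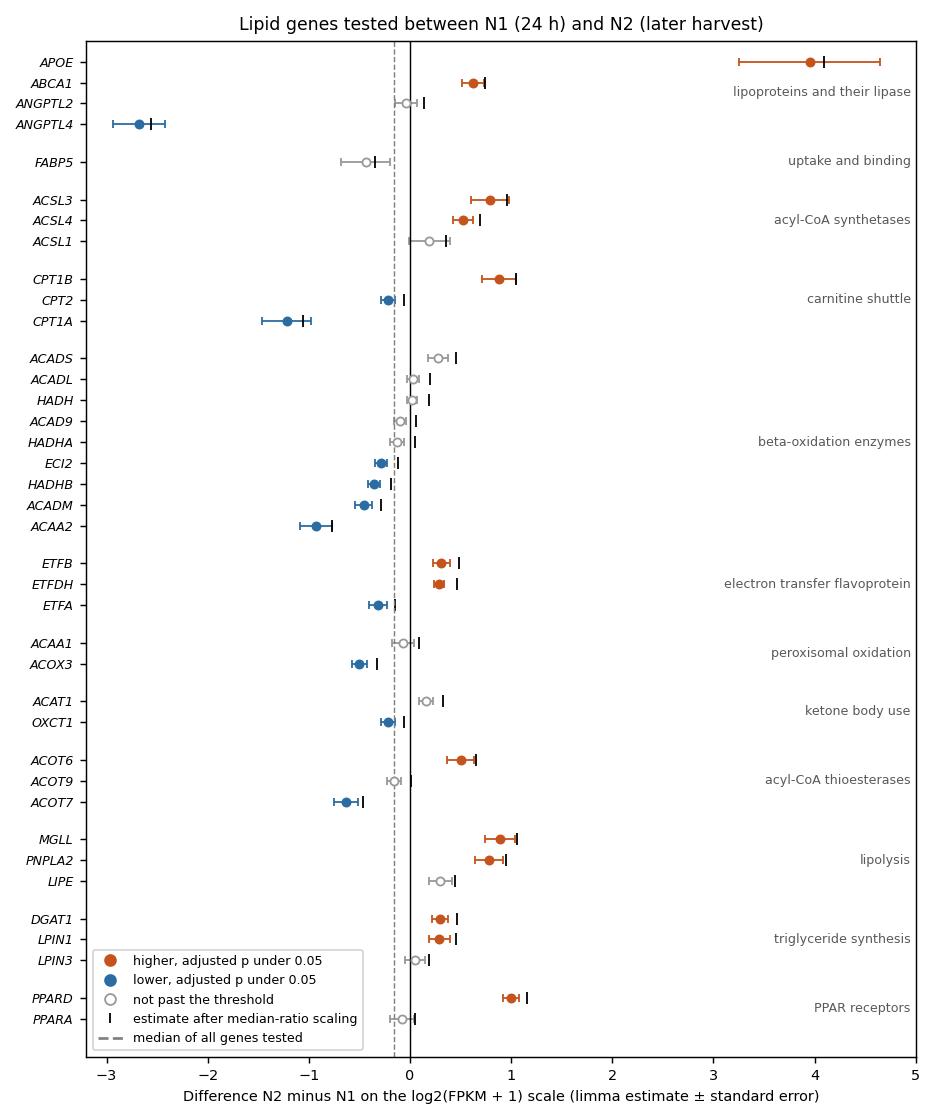
Difference N2 minus N1 on the log2(FPKM + 1) scale for the 38 lipid genes tested, grouped by role, as the limma estimate (circle) with its standard error. Orange genes were higher and blue genes lower at an adjusted p under 0.05, open circles did not pass, black ticks give the estimate after median-ratio scaling, and the dashed line is the median of all genes (-0.16). APOE (3.95) and ANGPTL4 (-2.68) lie far from the other genes, and CPT1B and CPT1A lie on opposite sides of 0.

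Among the PPAR receptors, PPARD rose and PPARA did not pass. PPARD (ENSSSCG00000001539) had an FPKM of 12.0, 12.2 and 11.0 in N1 and 23.9, 26.3 and 23.2 in N2. The libraries within a group were close together and the groups did not overlap. PPARD rose 2.08-fold, with a log2 change of 1.0 (SE 0.08, limma adjusted p = 0.000692), and it passed in all 14 alternatives. PPARA had 3.16, 3.64 and 2.99 in N1 and 3.54, 2.68 and 2.88 in N2. Its groups overlapped, and the log2 change of -0.08 (limma adjusted p = 0.583) turned to 0.05 under median-ratio and 0.09 under quantile normalization. PPARG had 0.257, 0.332 and 0.826 in N1 and 0.0785, 0.124 and 0.211 in N2, from 43 and 15 fragments per group. PPARG lay below 1 in every library, was lower in each N2 library than in any N1 library, and did not pass in a fit without the FPKM minimum (log2 change -0.35, limma adjusted p = 0.112). Within a library PPARD exceeded PPARA by 3.79, 3.36 and 3.68 times in N1 and by 6.75, 9.81 and 8.05 times in N2.

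Genes known as PPAR targets moved in both directions, and those described here were picked after their values were seen. ANGPTL4 (ENSSSCG00000013599) encodes a secreted inhibitor of lipoprotein lipase. Its FPKM was 9.35, 10.6 and 16.4 in N1 and 0.857, 0.592 and 1.69 in N2, from 1487 and 151 fragments per group. All N2 libraries lay far under all N1 libraries. The mean fell 11.6-fold (9.56-fold without N1_6), and the log2 difference was -2.68 (SE 0.26, limma adjusted p = 0.000928), past the threshold in all 14 alternatives. PDK4, the kinase that restrains pyruvate oxidation in favour of fat, had 0.200, 0.275 and 0.273 in N1 and 0.0406, 0.0257 and 0.0469 in N2, from 44 and 8 fragments per group. PDK4 lay under the FPKM minimum, and in the fit without that minimum it was lower (log2 change -0.27, limma adjusted p = 0.00538). SLC25A20, the carrier that exchanges acyl-carnitine across the inner mitochondrial membrane, fell from 21.1, 23.6 and 25.5 to 11.8, 11.9 and 12.7 (log2 change -0.89, SE 0.08, limma adjusted p = 0.000896). UCP2, an inner membrane carrier, rose from 5.68, 5.50 and 5.65 to 8.57, 8.72 and 6.94 (log2 change 0.45, limma adjusted p = 0.00985).

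In the lipoprotein group, APOE and ABCA1 rose together, ANGPTL4 fell as given above, and ANGPTL2 did not pass. APOE (ENSSSCG00000003088), the apolipoprotein by which particles are taken up through receptors of the LDL receptor family, had 9.12, 4.87 and 0.386 in N1 and 94.8, 64.1 and 47.7 in N2. The N1_6 value rests on 7 fragments, against 170 and 88 in N1_4 and N1_5 and 948 to 2173 in the N2 libraries. APOE rose 14.4-fold, and 9.84-fold without N1_6, with log2 changes of 3.95 and 3.12 (limma adjusted p = 0.00446 and 0.000947). ABCA1, which loads cholesterol onto apolipoproteins, had 2.32, 2.06 and 1.72 in N1 and 3.89, 3.46 and 3.56 in N2. Its rise was 1.79-fold (log2 change 0.62, SE 0.11, limma adjusted p = 0.00500). ANGPTL2, an angiopoietin-like protein without known lipase inhibition, had the highest level of the group, 34.2, 38.0 and 42.4 in N1 and 40.2, 39.4 and 32.2 in N2, with overlap of the groups and a log2 change of -0.04 (limma adjusted p = 0.814) that turned positive with either other scaling. APOD, a lipocalin that carries small lipids, stayed under 0.6 in every library.

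Some markers of other cells were at or near 0 and others were well detected and moved between the groups, and in bulk RNA fewer cells of a type cannot be told apart from less RNA per cell. Macrophages are a known source of APOE. Of the 6 leukocyte markers with a row, PTPRC was at 0 in every library, CSF1R was at most 0.0567 and C1QA at most 0.0556. The summed FPKM of the 6 was 4.63 to 5.89 in N1 and 2.05 to 3.37 in N2. It came mostly from CD14 (mean 2.59 in N1 and 1.18 in N2) and CD68 (2.30 and 1.28). ITGAM went the other way, with a mean of 0.152 in N1 and 0.256 in N2. For the adipocyte list, 6 of 11 genes had a row. RETN was at 0 in every library, PLIN1 was at most 0.0773, and CIDEC was between 0.129 and 0.557. The summed FPKM of the list, 27.3 to 83.8 in N1 and 110 to 125 in N2, came mostly from GPD1, which muscle also expresses, and the list shares PPARG with the lipid genes. CEBPA was the 1 gene of the list that passed. It fell from 3.05, 2.64 and 1.88 to 1.49, 0.815 and 1.77 (log2 change -0.59, limma adjusted p = 0.0487), and passed in 4 of 13 alternatives. The 7 fibroblast markers with a row summed to 930 to 1001 in N1 and 825 to 1030 in N2. Of the 5 tested, 3 were lower (COL1A2, DCN and LUM) and 1 was higher (COL3A1), 80.0% in either direction against 50.9% of all genes. PDGFRA lay under the FPKM minimum, with a mean of 0.486 in N1 and 0.0859 in N2. In the fit without that minimum PDGFRA was lower (log2 change -0.45, limma adjusted p = 0.0159). DCN had 18.8, 19.0 and 18.5 in N1 and 5.09, 6.37 and 6.89 in N2. Of the smooth muscle and pericyte markers, 7 had a row and 6 were tested. Of these, 1 was higher (NOTCH3) and 3 were lower (MCAM, TAGLN and CSPG4), 66.7% in either direction against 50.9% of all genes. The call of NOTCH3 was lost without N1_6 (limma adjusted p = 0.0526). The summed FPKM of the 7 was 1316 to 1770 in N1 and 1236 to 1436 in N2. MCAM had a mean of 158 in N1 and 77.8 in N2 (limma adjusted p = 0.00118), TAGLN 270 and 131 (0.0277) and ACTA2 961 and 989 (0.737), while MYH11 was at most 0.0254. TAGLN was 400 in N1_6, and its 2.06-fold fall was 1.56-fold without that library. Of the endothelial markers, 5 had a row, KDR was at 0 in every library, and the summed FPKM of 18.8 to 23.0 in N1 and 33.5 to 38.8 in N2 came mostly from EGFL7, which rose from a mean of 19.8 to 35.1 (limma adjusted p = 0.00171). CDH1, given above, was higher in the group with more APOE. The part of such cells in the fall of ANGPTL4 and in the values of APOE and PPARG was not tested.

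For uptake and binding, FABP5 was the one gene with a row. It encodes a cytosolic fatty acid binding protein of skin, fat and macrophages, and its FPKM was 1.09, 1.07 and 2.62 in N1 and 1.04, 0.610 and 0.912 in N2. N1_6 stood above the other libraries, and N1_5 and N2_4 were nearly equal. The log2 change of -0.44 (SE 0.24, limma adjusted p = 0.171) shrank to -0.17 without N1_6.

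Among the acyl-CoA synthetases, which attach coenzyme A to fatty acids, 2 of the 3 tested rose and 0 fell, where 16.5% of all genes were higher. The same counts held with median-ratio scaling (23.9% of all genes higher) and with quantile normalization (21.6%). ACSL4 (ENSSSCG00000012583) rose 1.44-fold, from 112, 108 and 124 to 180, 167 and 147 (log2 change 0.52, SE 0.10, limma adjusted p = 0.00510). ACSL3, the droplet- and endoplasmic reticulum-bound enzyme, rose 1.69-fold, and 1.47-fold without N1_6, from 78.6, 66.4 and 44.4 to 111, 104 and 105 (log2 change 0.79, SE 0.19, limma adjusted p = 0.0146). N1_6 held the lowest ACSL3 value, and the log2 change without it was 0.56 (limma adjusted p = 0.00266). ACSL1, the main synthetase of oxidative muscle and fat, had 57.4, 49.5 and 32.1 in N1 and 55.5, 49.9 and 49.1 in N2. The log2 change of ACSL1 was 0.19 (limma adjusted p = 0.461), within the scatter of its libraries, and became -0.05 without N1_6.

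In the carnitine shuttle, the RNA of the CPT1 isoforms moved in opposite directions. CPT1 is the step at which malonyl-CoA limits entry of fatty acids into mitochondria. CPT1A is known as the liver form and CPT1B as the muscle form, the latter more sensitive to malonyl-CoA. CPT1A (ENSSSCG00000012880) had 29.2, 35.7 and 58.6 in N1 and 15.0, 16.1 and 17.8 in N2. The N1 libraries were widely spread with N1_6 highest, and every one lay above every N2 library. CPT1A fell 2.52-fold, and 1.98-fold without N1_6 (log2 change -1.22, SE 0.24, limma adjusted p = 0.00618). CPT1B (ENSSSCG00000022364) had 23.2, 22.9 and 15.0 in N1 and 40.6, 36.7 and 35.8 in N2, a 1.85-fold rise, and 1.64-fold without N1_6 (log2 change 0.88, SE 0.17, limma adjusted p = 0.00550). Both calls held in all 14 alternatives. The ratio of CPT1B to CPT1A, which the scaling of a library does not touch, was 0.795, 0.643 and 0.256 in N1 and 2.71, 2.28 and 2.01 in N2. By FPKM, CPT1A was thus the higher isoform in all N1 libraries and CPT1B in all N2 libraries. FPKM depends on the row lengths, 1907 bases for CPT1A and 1514 for CPT1B as recovered. Which isoform is higher should therefore be read less firmly than the change of the ratio. The mean ratio was 0.565 ± 0.278 (SD, n = 3) and 2.33 ± 0.354 (SD, n = 3), a 4.13-fold difference that was 3.24-fold without N1_6 (exact permutation test, two-sided p = 0.10, the smallest that 3 against 3 libraries allow). This pair, like the other ratios of genes given here, was chosen after the values were seen. CPT2 had 11.4 ± 0.355 (SD, n = 3) in N1 and 9.65 ± 0.386 (SD, n = 3) in N2. It passed on the deposited values (log2 change -0.22, limma adjusted p = 0.0348) and in 5 of 14 alternatives, with an adjusted p of 0.486 after median-ratio scaling. Its call was lost without any one of the 6 libraries, with adjusted p from 0.0516 (without N2_4) to 0.118 (without N2_5) and 0.0567 without N1_6.

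**Figure D3:**
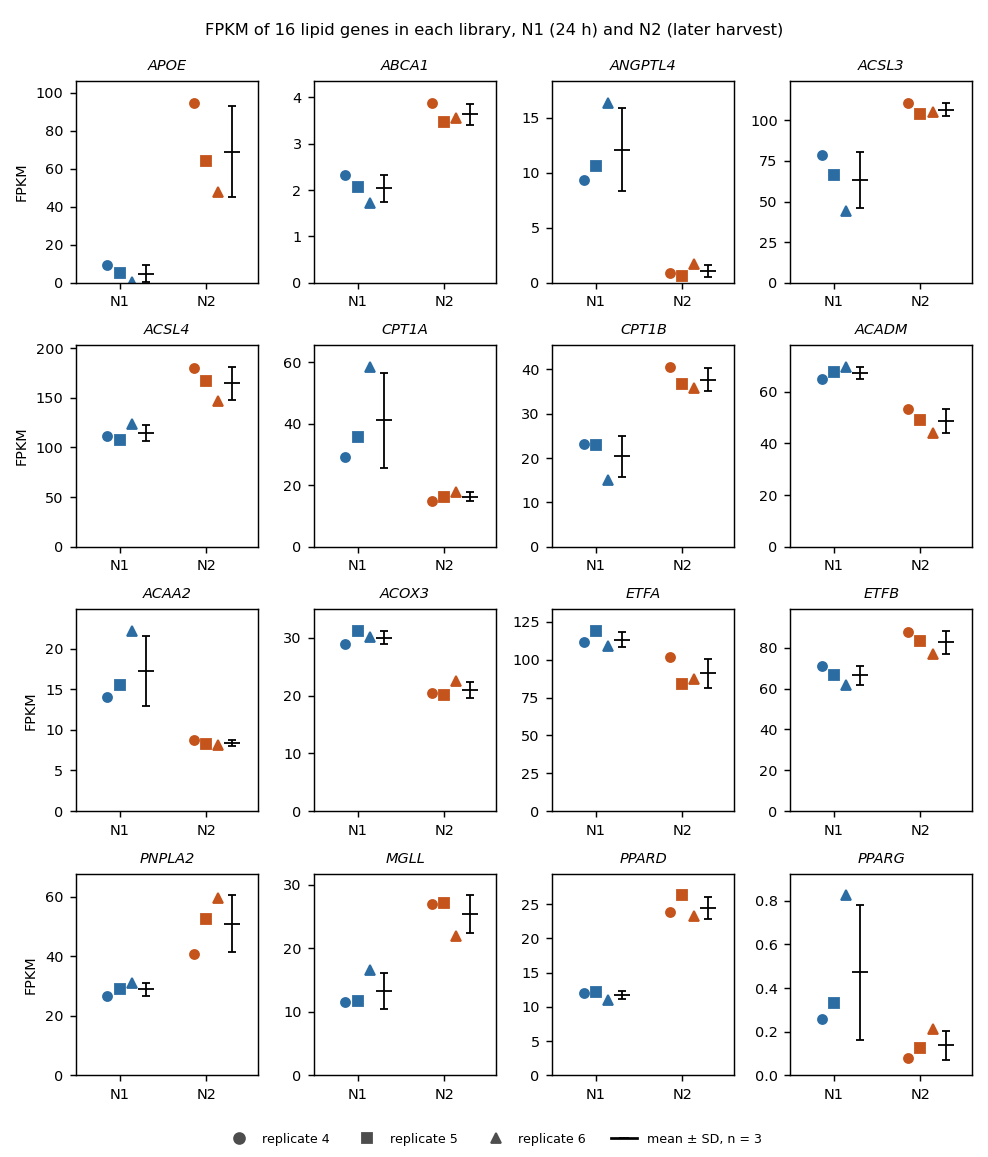
FPKM of 16 lipid genes in each library (circle, square and triangle for replicates 4, 5 and 6) of N1 and N2, with the mean ± SD of the 3 libraries beside them and each vertical axis starting at 0. The groups do not overlap in any of the 16 panels, N1_6 (triangle) is the extreme N1 library for APOE, ANGPTL4, ACSL3, CPT1A and CPT1B, and PPARG stays below 1 throughout.

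Of the 9 mitochondrial beta-oxidation enzymes tested, 4 were lower (ACAA2, ACADM, HADHB and ECI2), 0 were higher, and 5 did not pass. The lower share of 44.4% stands beside 34.4% of all genes lower and 50.9% of all genes called in either direction. The edge of this list depended on scaling, since 3 were lower and 3 higher (ACADS, ACADL and HADH) with median-ratio scaling, and 4 were lower and 1 higher (ACADS) with quantile normalization. ACAA2, a thiolase of the last step of a cycle, moved most, from 14.1, 15.5 and 22.2 to 8.80, 8.32 and 8.13. All N2 values of ACAA2 lay close together and under the lowest N1 value, a 2.05-fold fall, and 1.76-fold without N1_6 (log2 change -0.93, SE 0.16, limma adjusted p = 0.00391). ACADM, the medium-chain dehydrogenase, fell 1.38-fold from 64.9, 67.7 and 69.5 to 53.4, 48.9 and 44.2 (log2 change -0.46, SE 0.08, limma adjusted p = 0.00436). Both genes were lower in all 14 alternatives. ECI2, an isomerase for unsaturated chains, fell from 32.0 ± 0.961 (SD, n = 3) to 26.0 ± 0.259 (SD, n = 3), with a log2 change of -0.29 (limma adjusted p = 0.00629), a call not kept with median-ratio scaling (adjusted p = 0.117).

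The dehydrogenases for long and short chains did not share the fall of ACADM on the deposited values. ACADL, for long chains, had 42.3, 40.4 and 38.9 in N1 and 42.1, 39.8 and 42.6 in N2 (log2 change 0.03, limma adjusted p = 0.679). ACADS, for short chains, had 21.4, 20.9 and 16.9 in N1 and 25.2, 23.3 and 23.8 in N2, just short of the threshold (log2 change 0.28, limma adjusted p = 0.0520) and past it in 6 of 14 alternatives, among them the fit without N1_4 (adjusted p = 0.0424). ACAD9, better known for the assembly of respiratory complex I, had 14.8 ± 0.324 (SD, n = 3) and 13.7 ± 0.363 (SD, n = 3) (limma adjusted p = 0.195). HADH, the dehydrogenase for short 3-hydroxy chains, was nearly level at 59.4, 57.3 and 61.1 in N1 and 60.3, 59.3 and 61.0 in N2, the highest values of the enzymes with ACADM. Whether ACADM differed in its change from ACADL and ACADS was not tested.

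HADHA and HADHB are the subunits of one enzyme, the trifunctional protein. HADHB had 27.0, 28.5 and 29.2 in N1 and 22.6, 21.5 and 21.4 in N2, a 1.29-fold fall (log2 change -0.36, SE 0.06, limma adjusted p = 0.00423) that held in all 14 alternatives. HADHA had 40.9, 43.3 and 45.0 in N1 and 42.5, 38.7 and 37.0 in N2, with overlapping groups (log2 change -0.13, limma adjusted p = 0.193) and a sign that turned with median-ratio scaling. Within a library the ratio of HADHA to HADHB was 1.52 ± 0.0139 (SD, n = 3) in N1 and 1.80 ± 0.0780 (SD, n = 3) in N2, without overlap (exact permutation test, two-sided p = 0.10, the smallest possible). This pair too was chosen after the values were seen.

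The genes of electron transfer also split. ETFA and ETFB encode the subunits of the electron transfer flavoprotein, a heterodimer, and ETFDH the membrane enzyme that takes its electrons on to ubiquinone. ETFA had 112, 119 and 109 in N1 and 102, 83.8 and 87.2 in N2, a 1.25-fold fall (log2 change -0.32, SE 0.09, limma adjusted p = 0.0221). ETFB had 71.0, 66.7 and 61.7 in N1 and 87.7, 83.5 and 76.7 in N2, a 1.24-fold rise (log2 change 0.31, SE 0.08, limma adjusted p = 0.0170). ETFDH rose 1.22-fold from 117, 112 and 113 to 139, 140 and 139, with very little spread in N2 (log2 change 0.29, SE 0.05, limma adjusted p = 0.00476). ETFDH passed in all 14 alternatives, ETFB in 11 and ETFA in 10, the call of ETFA being lost after scaling by median ratio (-0.15 on the log2 scale, adjusted p = 0.217). ETFA also lost its call without N1_5, N2_5 or N2_6 (adjusted p = 0.0790, 0.0831 and 0.0675), and ETFB without N1_5, N2_4 or N2_5 (0.0532, 0.0554 and 0.0631). The ratio of ETFB to ETFA was 0.634, 0.560 and 0.564 in N1 and 0.858, 0.996 and 0.880 in N2, a 1.56-fold shift without overlap. The level of ETFB rests on a row of 325 bases as recovered from its FPKM steps, so the ratio itself should be read less firmly than its change.

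**Figure D4:**
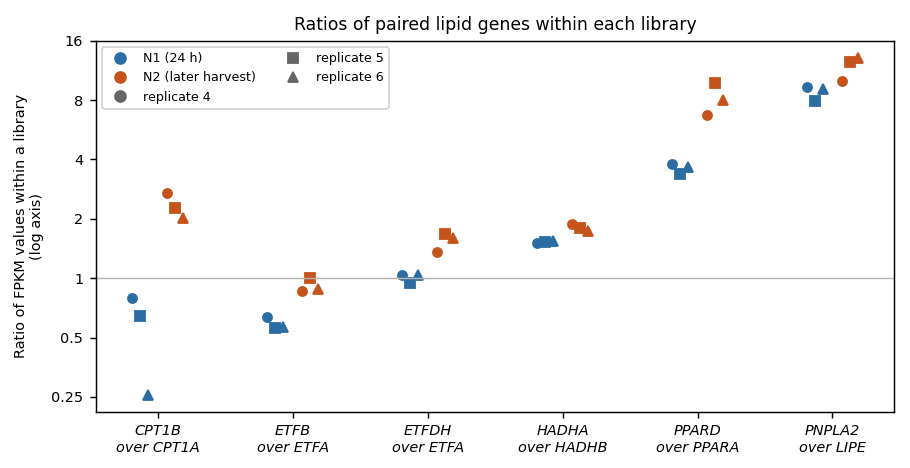
Ratio of the FPKM values of paired lipid genes within each library (log axis), for N1 (blue) and N2 (orange), with circle, square and triangle for replicates 4, 5 and 6. Each of the 6 ratios is higher in all N2 libraries than in any N1 library, and the ratio of CPT1B to CPT1A crosses 1 between the groups, from 0.565 to 2.33 on average. The pairs and the gene placed on top were chosen after the values were seen, so the shared direction is not a result.

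In peroxisomes, which shorten branched and very long chains, ACOX3 fell and ACAA1 did not pass. ACOX3, an acyl-CoA oxidase for branched chains, went from 28.9, 31.2 and 30.1 to 20.4, 20.1 and 22.6, a 1.43-fold fall (log2 change -0.50, SE 0.07, limma adjusted p = 0.00223) seen in all 14 alternatives. ACAA1, the peroxisomal thiolase, had 13.7 ± 1.5 (SD, n = 3) and 13.0 ± 1.30 (SD, n = 3), with overlapping groups (limma adjusted p = 0.611). For ketone bodies, the enzymes ACAT1 and OXCT1 act in one path. ACAT1 had 52.0, 48.4 and 48.2 in N1 and 58.1, 57.5 and 51.2 in N2 (log2 change 0.16, limma adjusted p = 0.101), and passed with median-ratio scaling (adjusted p = 0.0137) and without N2_6 (0.0462). OXCT1, which activates acetoacetate, had 11.3 ± 0.338 (SD, n = 3) in N1 and 9.57 ± 0.594 (SD, n = 3) in N2. OXCT1 passed on the deposited values (log2 change -0.22, limma adjusted p = 0.0416) but in 5 of 14 alternatives, and had a log2 change of -0.06 (adjusted p = 0.509) after median-ratio scaling. The call of OXCT1 was lost without N1_4, N1_5, N1_6, N2_5 or N2_6 (adjusted p = 0.108, 0.0875, 0.0508, 0.152 and 0.0899).

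Among the thioesterases, which release fatty acids from coenzyme A, 1 rose, 1 fell and 1 did not pass, where 50.9% of all genes passed in either direction. ACOT7, an enzyme best known from brain, fell from 9.48, 9.96 and 12.4 to 5.74, 6.64 and 7.06. The fall was 1.64-fold, and 1.50-fold without N1_6 (log2 change -0.63, SE 0.12, limma adjusted p = 0.00597 with all libraries). ACOT6 rose from 3.29, 3.68 and 4.33 to 6.73, 5.42 and 5.15 (log2 change 0.50, SE 0.13, limma adjusted p = 0.0171). ACOT6 belongs to a cluster of related genes with ACOT1 and ACOT2, so its fragments may be shared with them and its value is uncertain. Its call was lost without N1_5 or N2_4 (adjusted p = 0.0532 and 0.0526). ACOT9, the mitochondrial form with the highest level, had 57.9, 59.9 and 62.2 in N1 and 52.1, 51.4 and 57.1 in N2 (log2 change -0.16, limma adjusted p = 0.0763), and its log2 change was 0.009 after median-ratio scaling. Without N2_6 it passed (adjusted p = 0.0473).

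Of the 3 lipases that empty droplets, PNPLA2 and MGLL rose and LIPE did not pass, where 16.5% of all genes were higher. PNPLA2, the adipose triglyceride lipase, which takes the first fatty acid from a triglyceride, had 26.7, 29.1 and 31.0 in N1 and 40.7, 52.4 and 59.7 in N2, a 1.76-fold rise (log2 change 0.78, SE 0.14, limma adjusted p = 0.00481). MGLL, which takes the last one, had 11.6, 11.7 and 16.6 in N1 and 27.0, 27.2 and 21.9 in N2, a 1.91-fold rise, and 2.18-fold without N1_6 (log2 change 0.89, SE 0.15, limma adjusted p = 0.00409). Both passed in all 14 alternatives. For both, N1_6 was the N1 library nearest to N2. LIPE, the hormone-sensitive lipase that acts between them, was the lowest of the 3 at 2.85, 3.68 and 3.39 in N1 and 4.08, 4.20 and 4.57 in N2. LIPE was just short of the threshold (log2 change 0.30, SE 0.11, limma adjusted p = 0.0531) and passed in 4 of 13 alternatives, among them both other scalings.

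The droplet coat genes with a row were barely detected. PLIN5, which tethers droplets to mitochondria in oxidative muscle, had 0.219, 0.356 and 0.643 in N1 and 0.0255, 0.0726 and 0.0294 in N2, from 38 and 5 fragments per group. Every N2 library held 3 fragments or fewer. In the fit without the FPKM minimum PLIN5 was lower (log2 change -0.42, limma adjusted p = 0.0278). PLIN4 had 0, 0.0139 and 0.0138 in N1 and 0.0547, 0.0416 and 0.0379 in N2, from 2 and 12 fragments, too few for a comparison. For triglyceride synthesis, DGAT1, which adds the last fatty acid, rose 1.25-fold from 9.47, 9.23 and 10.1 to 12.8, 10.9 and 12.5 (log2 change 0.30, SE 0.08, limma adjusted p = 0.0238), and passed in 10 of 14 alternatives. LPIN1, the phosphatidate phosphatase of muscle and fat, rose from 6.72, 7.48 and 8.43 to 8.70, 9.63 and 9.90 (log2 change 0.29, SE 0.10, limma adjusted p = 0.0468), and passed in 8 of 14. DGAT1 lost its call without N1_4, N1_5, N2_4 or N2_6 (adjusted p = 0.0575, 0.0799, 0.0780 and 0.0710), and LPIN1 without N1_4, N1_5, N2_4, N2_5 or N2_6 (0.120, 0.113, 0.0580, 0.137 and 0.127). LPIN3 had 4.33 ± 0.357 (SD, n = 3) and 4.53 ± 0.316 (SD, n = 3), with overlapping groups (limma adjusted p = 0.675).

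Other genes of the same pathways were taken from lists of 92 symbols, of which 69 had a row and 55 were tested. In these, 14 were higher in N2 (25.5%, against 16.5% of all genes) and 13 lower (23.6%, against 34.4%), and their median log2 change was 0.00. In either direction 49.1% passed, near the 50.9% of all genes. With median-ratio scaling 21 were higher (38.2%, against 23.9% of all genes) and 9 lower (16.4%, against 22.3%). Among the largest rises were those of VLDLR and PPARGC1B. VLDLR, a receptor for APOE-bearing particles, had 31.8, 32.1 and 30.8 in N1 and 79.0, 62.5 and 54.0 in N2 (log2 change 1.01, SE 0.13, limma adjusted p = 0.00185). PPARGC1B, a coactivator of PPARs and estrogen-related receptors, rose from 8.41, 7.96 and 7.96 to 11.3, 16.5 and 18.6 (log2 change 0.83, limma adjusted p = 0.00728). The 3 largest falls were those of LIPC, a lipase of the lipoprotein lipase family (log2 change -1.23, from 161 and 44 fragments per group, limma adjusted p = 0.000752), SLC25A20, as given above, and ACOX2, a peroxisomal oxidase (log2 change -0.89, limma adjusted p = 0.00188). Of the 14 PPAR partners and coregulators tested, 5 were higher and 3 lower (57.1% in either direction, against 50.9% of all genes). Of the 8 other peroxisomal genes tested, 3 were higher and 4 lower (87.5%). The lipoprotein receptors held 2 higher and 1 lower of 6 (50.0%), and the other beta-oxidation enzymes 0 higher and 1 lower of 6 (16.7%), with 1 higher after median-ratio scaling.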

How the data were processed

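RNA-seq was analysed for 6 libraries of differentiating PSCs, 3 in N1 and 3 in N2. Paired-end reads were counted per gene with HTSeq by the authors, who deposited FPKM values for each library. Their methods name HISAT2 and StringTie with the pig genome Sscrofa11.1, whereas the submitters' processing notes name TopHat2, Cufflinks and HTSeq. Strandedness and the handling of shared reads are not given in the sources used here. The Ensembl identifiers of the table end at number 31070, and 3819 identifiers with a symbol lie above it, so the gene models may be those of an older gene set and no coordinates are given. Symbols were paired with 11804 of 25322 identifiers. The members, lists and ratios were chosen with earlier results of these data known. Ratios between genes and the genes called PPAR targets were added after the values were seen.

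Whole fragments were recovered from the FPKM steps for 19543 genes, all of those above 0 in at least 3 libraries. The library totals used for this were rounded to whole numbers. Counts with a common divisor would be recovered too low. Genes averaging an FPKM of 1 or more entered limma 3.58.1 (R 4.3.3; lmFit and eBayes with trend) as log2(FPKM + 1), with Benjamini-Hochberg adjustment and a threshold of 0.05. The test and the recovery were tested on simulated data. Values of every library were to be given for the 8 rises and 8 falls of greatest size that passed without overlap of the groups, the highest gene of each role, and the PPAR, FABP, CPT1 and PLIN genes. Other members were added, and of the related genes up to 3 per direction were named, of which 1 is not reported here. Alternatives were a pseudocount of 0.1, no filter, an FPKM minimum of 5, 2 other scalings, eBayes without trend, the replicate block, limma voom on the recovered fragments and leaving out each library. A planned search of promoters for motifs was not run, as no sequence was used here.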

Additional observations from a re-analysis of the deposited data

How the results depend on the processing

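Of the 13 lipid genes higher in N2 and the 11 lower, 9 and 7 passed in every alternative run for them. The matching share of all genes is not given here. With each library left out in turn the numbers ranged from 9 to 13 higher and from 8 to 10 lower, the median log2 change of the lipid genes from -0.00 to 0.04, the related genes that passed from 22 to 31 (27 with all libraries), and all genes that passed from 4889 to 7336. Median-ratio scaling moved the number of lower genes to 7 and the median log2 change of the lipid genes from 0.03 to 0.19, and quantile normalization moved that median to 0.08. The changed centre of all genes under these scalings is part of their construction.

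Signs turned in genes that did not pass as deposited. After median-ratio scaling the log2 change was 0.14 for ANGPTL2, 0.06 for ACAD9, 0.05 for HADHA, 0.09 for ACAA1, 0.009 for ACOT9 and 0.05 for PPARA. With quantile normalization it was 0.009 for ANGPTL2, 0.03 for ACAD9, 0.07 for ACAA1 and 0.09 for PPARA. Leaving out a library gave ANGPTL2 0.04 (without N1_6) and 0.06 (without N2_6), ACSL1 -0.05 (without N1_6), HADH -0.001 and LPIN3 -0.004 (both without N1_5). Over the 6 such fits the range was -0.11 to 0.06 for ANGPTL2, -0.05 to 0.36 for ACSL1 and -0.004 to 0.10 for LPIN3. The cause was not tested.

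The replicate numbers are shared by both groups, but the correlation of same-numbered libraries' deviations across 14060 genes was 0.146, -0.0165 and 0.178 for numbers 4, 5 and 6, so they were not taken as pairs. With the replicate block 7034 genes passed against 7156, CPT2 and OXCT1 lost their call (adjusted p = 0.0703 and 0.0559), ACADS gained one (0.0470), and no other lipid gene changed its call. Few fragments limit the reading of PPARG, PLIN4, PLIN5, ACADVL, ACSL6 and APOD.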
